A study of Mus musculus with 2 samples.

Results

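The genes described here form the antioxidant defence and Nrf2 pathway of the mouse hippocampus, 40 genes listed by symbol. They were chosen by name, without a rule on their measured values, though earlier results of these data were known. A gene was found where the RefSeq accession of a probe mapped to its symbol. Probes were found for 39 of the 40, among 16535 genes with a symbol on the arrays, and Pgd, which encodes the NADPH-producing 6-phosphogluconate dehydrogenase, had no matched probe. All 53 probes of the 39 cleared the background test in each RNA and on each array, so the 39 are counted among 13316 measured genes with a symbol, and none was lost to the filter on dim probes.

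The RNA came from the hippocampi of male C57BL/6J mice, 11 weeks of age at the start and 26 to 28 g in weight. All mice had 1 week of acclimatization on standard powdered chow. For 4 weeks one group then ate that chow with 0.5% (w/w) of a powder containing 2% astaxanthin from the alga Haematococcus pluvialis (ASX), a red carotenoid, while the control group ate it with placebo powder and 0% ASX. The labels name no transgene or deletion. Both RNAs were hybridised together to each of 2 two-colour arrays, with ASX in Cy5 and control in Cy3 on array 1 and the dyes exchanged on array 2. Each array title names 4 mice and no label says how their RNA was combined, so the arrays count as repeat measurements of a single pair of RNA samples with the dyes swapped. There was 1 replicate of the diet comparison and no test of the diet was possible: each SD below is between the 2 arrays and is technical. Between 75.8% and 78.2% of transcript spots stood well above background, over both RNAs and both arrays. Of 10 marker genes of hippocampal neurons, 9 were measured in both RNAs, Prox1, Zbtb20, Wfs1 and Camk2a among them.

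Nrf2, the product of Nfe2l2, is a transcription factor that is bound and sent for degradation by Keap1 in unstressed cells. When oxidants or electrophiles modify Keap1, Nrf2 accumulates, pairs with small Maf proteins and binds antioxidant response elements near genes for glutathione synthesis, thioredoxin reduction, NADPH supply, haem breakdown and iron storage. In brain tissue many of these genes, though not all, are most active in astrocytes and other glia. The enzymes remove superoxide, hydrogen peroxide and lipid peroxides formed by respiring neurons.

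The core of the antioxidant response element is commonly written TGACNNNGC, where N is any base. These 9 letters were searched on both strands in RefSeq promoter windows of assembly GRCm38.p6, from 250 bases before to 50 bases after a transcription start, because this is the sequence through which the pathway's factor meets its targets. Of the 40 members 34 had at least 1 window, and 10 of the 34 (29.4%) held the letters: Nfe2l2, Blvra, Gclm, Txnrd1, Srxn1, Prdx1, Sod1, G6pdx, Pgd and Me1. Among all 27025 genes with a window 14.0% did, and among the 10634 of them that were measured here 16.6% did. Counted by window, it was 21.7% of 46 member windows and 12.4% of 32851 windows of 300 bases. A match describes letters only and is not evidence of a bound site. The stretches around the match are shown for 6 members, from the factor itself to 5 genes known as Nrf2 targets, read 5′ to 3′ on the strand of the gene with the matched letters in capitals:
Nfe2l2 (chr2:75704879-75704913, minus strand, match about 236 bases before the start): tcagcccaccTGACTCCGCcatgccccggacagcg
Gclm (chr3:122245407-122245447, plus strand, match about 130 bases before the start): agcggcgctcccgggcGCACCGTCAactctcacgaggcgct
Txnrd1 (chr10:82859098-82859138, plus strand, match about 88 bases before the start): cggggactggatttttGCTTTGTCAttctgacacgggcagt
Srxn1 (chr2:152105536-152105573, plus strand, match about 33 bases after the start): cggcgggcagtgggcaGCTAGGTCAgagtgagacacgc
Prdx1 (chr4:116685450-116685490, plus strand, match about 129 bases before the start): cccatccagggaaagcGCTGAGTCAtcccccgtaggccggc
Me1 (chr9:86695896-86695936, minus strand, match about 2 bases before the start): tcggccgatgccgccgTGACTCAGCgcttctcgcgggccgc

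In Nfe2l2 and Me1 the letters run along the strand of the gene, and in Gclm, Txnrd1, Srxn1 and Prdx1 they lie on the other strand, so that the capitals there show the reverse complement. All coordinates are those of GRCm38.p6; the array was designed on mm8, and no position from that build is used.

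The genes of the pathway lay close to equal levels in the 2 RNAs. A rise of 1.5-fold or more with ASX on both arrays was seen for 0 of the 39 measured members and for 0.0300% of all measured genes, and a fall of that size for 0 members and again 0.0300% of genes. In the mean of the arrays 0 members were over 1.2-fold apart, against 1.43% of all genes. That count depended on the scaling: it was 10 members (14.0% of all genes) with each array centred on its median and 38 members (74.1% of all genes) with centring on the spike-in spots. The mean log2 ratio of ASX over control ran from -0.14 for G6pdx (a ratio of 0.908) to 0.15 for Fth1 (1.11-fold). Its median over the members was -0.039, and over all measured genes it was -0.019. Of the members 31 (79.5%) had a mean below 0 and 8 above, while 59.5% of all genes had a mean below 0.

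**Figure D1:**
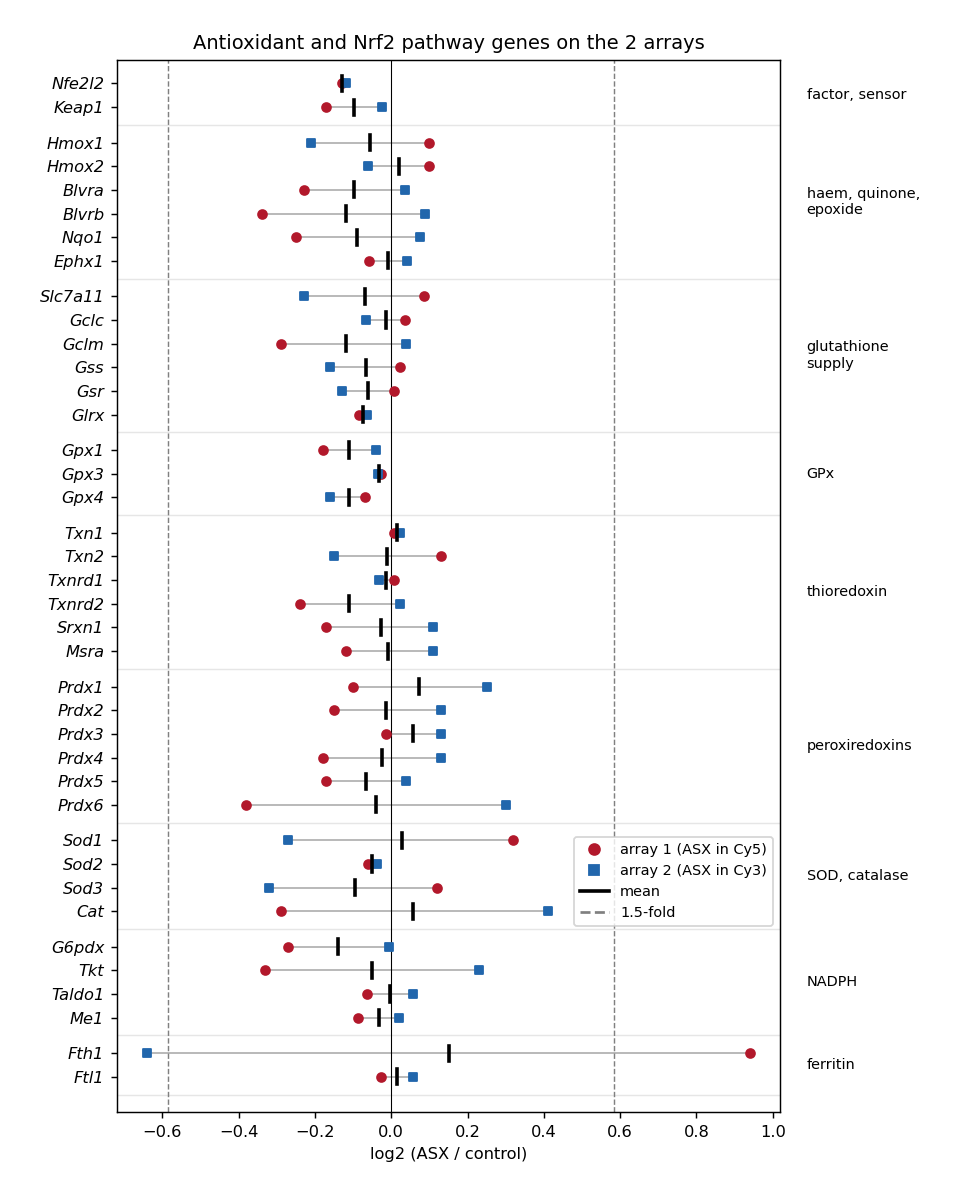
Each row is a pathway gene, grouped by role, with its log2 ratio of ASX over control on array 1 (circles) and array 2 (squares) and the mean of both (black bars); dashed lines mark 1.5-fold. The means lie between -0.14 and 0.15, and only Fth1 passes a dashed line, on opposite sides on the 2 arrays.

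The sign of the ratio mostly changed between the arrays. Of the 39 members 30 (76.9%) had opposite signs on array 1 and array 2, against 59.3% of all measured genes. In 19 of the 30 the ratio was below 0 on array 1 and above 0 on array 2, and in 11 it was the reverse. Of all genes 56.9% were below 0 on array 1 and 44.9% were above 0 on array 2. The share of all genes with each order of signs was not counted. Ratios below 0 on both arrays were found for 8 members (20.5%), namely Nfe2l2, Keap1, Glrx, Gpx1, Gpx3, Gpx4, Sod2 and G6pdx, as they were for 26.3% of all genes. Txn1 alone was above 0 on both, as 14.3% of all genes were. With the log ratios of the scanner software Txn1 had 0.020 and -0.049, and Prdx3 was instead the only member above 0 on both. G6pdx then had -0.26 and 0.023 and was not below 0 on both. These signs depended on how the arrays were scaled: with each array centred on its median instead of loess, the median of all genes moved from -0.019 to -0.16, and 34 members were then below 0 on both arrays and 0 above. The share of members on one side of 0 is thus readable only against all genes under the same scaling, where 61.4% were below 0 on both arrays and 8.89% above.

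**Figure D2:**
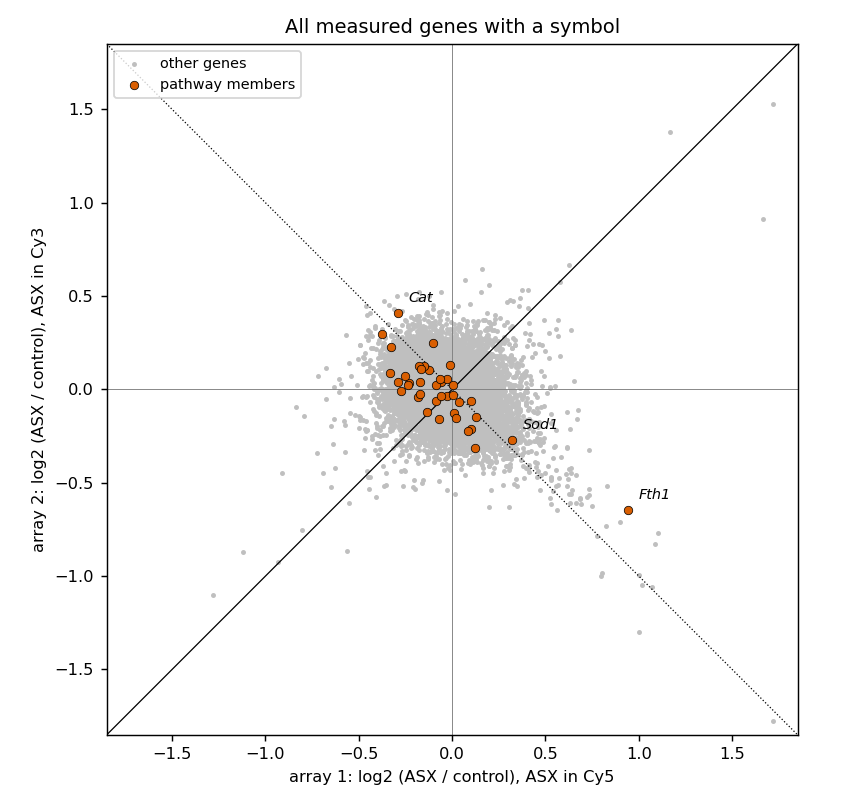
Log2 ratios of ASX over control on array 1 (x axis) and array 2 (y axis) for the 13316 measured genes with a symbol, with the 39 pathway members in orange. The solid diagonal holds genes with equal diet ratios on both arrays and the dotted one genes whose ratio follows the dye; Fth1, Sod1 and Cat lie along the dotted line.

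The dye swap separates a diet part, the mean of both turned ratios, from a dye part, the deviation of array 1 from that mean. The dye part is the larger in size wherever the signs are opposite. The median size of the dye part was 0.11 on the log2 scale over the members and 0.078 over all genes. The median size of the diet part was 0.058 over the members and 0.055 over all genes. The SD between the arrays ran from 0.0051 for Gpx3 to 1.1 for Fth1, with a median of 0.16, and was 0.11 in the median of all genes. The probes of the members were also bright, with a median log2 brightness of 12.68 against 10.33 over all genes, and the part of brightness in the size of the dye part was not tested.

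The factor and its sensor were both slightly below equality. Nfe2l2, read by its brighter probe, had a normalised intensity of 1442 in the ASX RNA and 1580 in the control RNA on array 1, and of 1071 and 1162 on array 2. The log2 ratios were -0.13 and -0.12, a mean ratio of 0.917 with an SD of 0.0095. Nfe2l2 thus had nearly the same ratio under either dye. Its other probe had -0.28 on array 1 and 0.0032 on array 2. Keap1, the adaptor that marks Nrf2 for degradation, had intensities of 8174 (ASX) and 9215 (control) on array 1 and of 5536 and 5628 on array 2, with log2 ratios of -0.17 and -0.024 and a mean of -0.098. The ASX value lay below the control value on both arrays for both genes, and neither mean was 1.2-fold from equality with this scaling; with median centring the means were -0.28 for Nfe2l2 and -0.31 for Keap1, past 1.2-fold, beside a median of all genes of -0.16. Relative to the median of all genes, Nfe2l2 stayed between -0.12 and -0.11 and Keap1 between -0.15 and -0.067 under the 9 settings with both arrays.

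Haem breakdown and detoxification genes had no shared direction on the 2 arrays. Hmox1, the inducible haem oxygenase and a standard reporter of Nrf2 activity, had intensities of 882 (ASX) and 823 (control) on array 1 and of 588 and 682 on array 2. The ratio was 0.10 on array 1 and -0.21 on array 2, a mean of -0.057 with an SD of 0.22. Nqo1, the quinone reductase that is the other classical reporter, was dim, with 248 (ASX) and 295 (control) on array 1 and 196 and 187 on array 2. Its log2 ratios were -0.25 and 0.074, a mean of -0.089, and -0.10 with the smaller normexp offset of 16, which compresses dim ratios less. For both reporters the SD between arrays was larger than the mean. Blvrb, a biliverdin and flavin reductase, had the largest mean of the group in size, -0.12, from -0.34 on array 1 and 0.089 on array 2. Blvra, the main biliverdin reductase, had a mean of -0.098, and Hmox2, the constitutive haem oxygenase, 0.020. Ephx1, an epoxide hydrolase, had -0.0081 with one probe and 0.022 with the other. All 6 genes of the group had opposite signs on the 2 arrays, as 59.3% of all measured genes did.

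Red cell genes differed between the RNAs and are given beside this group because red cells carry much haem and Blvrb. Of the 6 blood markers 5 were measured: Hba-a1, Hbb-bt and Alas2 were below 0 on both arrays, with mean log2 ratios of -0.46, -0.53 and -0.29. The neutrophil genes S100a8 and S100a9 had means of 0.65 and 1.27. Both were at least 1.5-fold higher on both arrays, as were 0.0300% of all measured genes. The sizes depended on the processing: with the scanner's log ratio S100a8 and S100a9 had means of 1.61 and 1.71. Those of Hba-a1, Hbb-bt and Alas2 were then -0.46, -0.55 and -0.48. The part of blood in the values of Hmox1, Blvra and Blvrb was not tested.

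**Figure D3:**
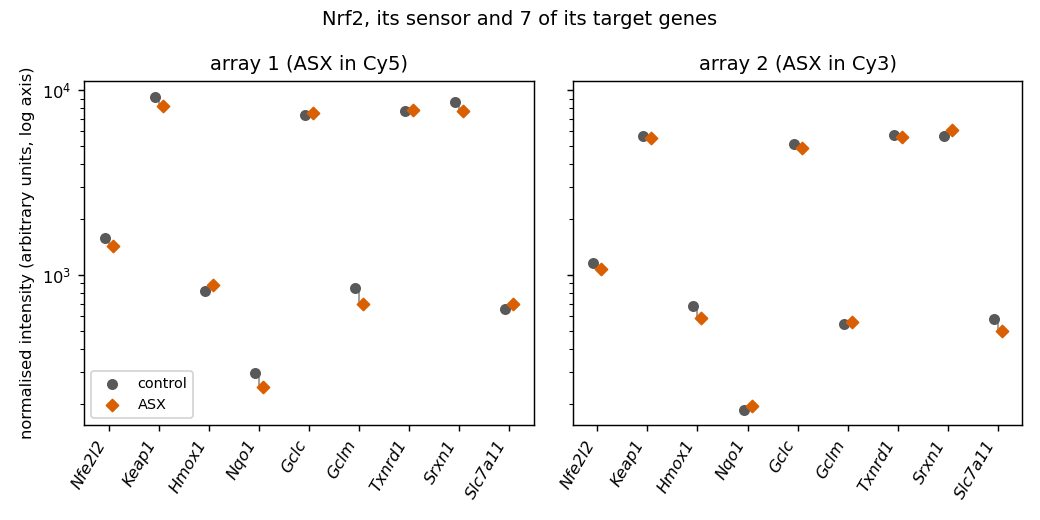
Normalised intensity (log axis, arbitrary units) of the control RNA (circles) and the ASX RNA (diamonds) for Nfe2l2, Keap1 and the Nrf2 target genes on array 1 and array 2; only the distance between the 2 symbols of a gene is comparable. Nfe2l2 and Keap1 have the diamond lower on both arrays, while Hmox1, Nqo1, Gclc, Gclm, Txnrd1, Srxn1 and Slc7a11 change order.

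The 6 genes of glutathione supply, read by their brightest probes, had means slightly below 0, as 59.5% of all measured genes had. Slc7a11, the cystine importer, had intensities of 698 (ASX) and 658 (control) on array 1 and of 496 and 580 on array 2, with log2 ratios of 0.085 and -0.23 and a mean of -0.070. Its 2 other probes had means of 0.044 and -0.080, so the probes of this gene lay on both sides of 0. Gclc, the catalytic subunit of the rate-limiting enzyme of glutathione synthesis, had 7488 and 7304 on array 1 and 4857 and 5081 on array 2. That gave 0.036 and -0.065, a mean ratio of 0.99 with an SD of 0.071. Gclm, the modifier subunit of the same enzyme, had 697 (ASX) and 851 (control) on array 1 and 555 and 541 on array 2. Its ratios of -0.29 and 0.038 gave a mean of -0.12, the largest in size in the group, with an SD of 0.23. Gss, which joins glycine in the last step, and Gsr, the reductase that recycles oxidised glutathione, had means of -0.067 and -0.061. Glrx, a glutaredoxin that reduces protein-glutathione disulfides, had -0.085 and -0.064, a mean of -0.075. Of the 6 genes, 5 had opposite signs on the arrays, as did 59.3% of all measured genes. The median of the group was 0.015 on array 1 and -0.097 on array 2.

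The 3 glutathione peroxidases, selenoproteins that spend glutathione on peroxides, were below 0 on both arrays. Gpx4, which reduces lipid peroxides in membranes and restrains ferroptosis, had -0.068 on array 1 and -0.16 on array 2, a mean ratio of 0.924 with an SD of 0.065. Gpx1, the abundant cytosolic enzyme, had -0.18 and -0.039, a mean ratio of 0.925 with an SD of 0.10. Gpx3, the secreted form, had -0.027 and -0.034, a mean ratio of 0.979. None of these means was 1.2-fold from equality with this scaling; with median centring Gpx1 (-0.33) and Gpx4 (-0.35) were, and with spike-in centring all 3. For comparison, 26.3% of all genes were below 0 on both arrays. Relative to the median of all genes, Gpx1 and Gpx4 were below 0 under all 9 settings with both arrays, and Gpx3 under 7 of them.

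The thioredoxin system had a median log2 ratio of -0.012 over its 6 genes. Txn1, cytosolic thioredoxin, had log2 ratios of 0.0059 and 0.022, a mean of 0.014, and Txnrd1, the selenoprotein that reduces it, 0.0063 and -0.032, a mean of -0.013. Txnrd1 had intensities of 7786 (ASX) and 7751 (control) on array 1 and of 5569 and 5692 on array 2. With this scaling these cytosolic partners had nearly equal signal in both RNAs on each array. With median centring the means of Txn1 and Txnrd1 were -0.21 and -0.23, beside a median of all genes of -0.16. Txn2 and Txnrd2, the mitochondrial pair, had means of -0.011 and -0.11. The Txnrd2 value, the largest of the group in size, came from -0.24 on array 1 and 0.023 on array 2, and its other probe had -0.083 and -0.12. Srxn1, sulfiredoxin, which repairs overoxidised peroxiredoxins and is a strong Nrf2 target, had 7679 (ASX) and 8612 (control) on array 1 and 6087 and 5643 on array 2. Its ratios of -0.17 and 0.11 had a mean of -0.028, and its other probes had means of 0.028 and -0.095, so neither the arrays nor the probes of Srxn1 shared a sign. Msra, which repairs oxidised methionine, had a mean of -0.0082.

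The peroxiredoxins, thiol peroxidases that carry most of the cell's capacity for hydrogen peroxide, were all 6 below 0 on array 1, where ASX was in Cy5, and above 0 on array 2, when read by their brightest probes. Both other probes of Prdx6 and 1 of Prdx2 did not share these signs. The 6 genes are among the 19 members with this order of signs, and its share over all genes was not counted. The medians of the 6 were -0.16 on array 1 and 0.13 on array 2, and -0.018 in the mean of the arrays. Prdx1, the cytosolic form most responsive to Nrf2, had the largest mean in size, 0.072, from -0.10 and 0.25, but -0.15 with median centring. Prdx6, the form with an added phospholipase activity that is rich in astrocytes, had -0.38 and 0.30, an SD of 0.48, and a mean of -0.039. Both its other probes had the reverse signs, with 0.037 and -0.17 (mean -0.069) and 0.016 and -0.095 (mean -0.040). Prdx2, the main neuronal form, was read by a probe with 10 spots and had -0.15 and 0.13, a mean of -0.013. Of its other probes, one had -0.21 and 0.078 and the other was below 0 on both arrays, with -0.12 and -0.035. Prdx3 of mitochondria had a mean of 0.058 (-0.15 with median centring), Prdx4 of the secretory pathway -0.024 and Prdx5 -0.067. The signs depended on the scaling. With median centring all 6 were below 0 on both arrays. The scanner's own log ratios had opposite signs for Prdx1, Prdx2, Prdx4, Prdx5 and Prdx6 and were above 0 on both arrays for Prdx3.

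Among superoxide dismutases and catalase, Sod1, Sod3 and Cat differed widely between the arrays, and Sod2 did not. Sod1, the cytosolic copper-zinc enzyme, had 0.32 on array 1 and -0.27 on array 2, a mean of 0.027 with an SD of 0.42. Cat, the peroxisomal catalase, swung the other way, with -0.29 and 0.41, a mean of 0.058 and an SD of 0.49; with median centring the means of Sod1 and Cat were below 0. Sod1 was thus brighter in Cy5 and Cat brighter in Cy3, whichever RNA carried the dye. Sod2, the mitochondrial manganese enzyme, had -0.061 and -0.038, a mean ratio of 0.966 with an SD of 0.017. Sod3, the extracellular enzyme, was dim, with 159 (ASX) and 146 (control) on array 1 and 100 and 125 on array 2, near the offset of 50 added to every intensity. Its ratios of 0.12 and -0.32 had a mean of -0.096, the largest in size here, and the mean was -0.15 with an offset of 16 and -0.18 with the scanner's log ratio. With median centring it was -0.012, so the size of the Sod3 ratio depended on the processing.

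Genes of NADPH supply had means at or just below 0, and 59.5% of all measured genes had a mean below 0. G6pdx, glucose-6-phosphate dehydrogenase, the entry enzyme of the pentose phosphate pathway, had the lowest mean of all 39 members. Its intensities were 5309 (ASX) and 6416 (control) on array 1 and 3928 and 3946 on array 2, with log2 ratios of -0.27 and -0.0067 and an SD of 0.19. The difference rested on array 1, and the SD exceeded the mean of -0.14 in size. Tkt, transketolase, had -0.33 and 0.23, with a mean of -0.050, and its other probe had a mean of 0.027. Taldo1, transaldolase, had a mean of -0.0038, and Me1, the cytosolic malic enzyme, -0.032.

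The ferritin chains store iron and keep it from producing radicals. Fth1, the heavy chain with ferroxidase activity, had the highest mean of the 39, and it was the member that followed the dye most: its intensity was 237800 for ASX and 123847 for control on array 1, and 111460 and 174207 on array 2. The ratios were 0.94 and -0.64, at least 1.5-fold on both arrays in the dye direction, as for 0.135% of all measured genes. All 18 genes that passed in that direction were brighter in Cy5 on both arrays, Fth1 among them. The mean of 0.15 for Fth1 is small beside the SD of 1.1, and it was -0.11 with median centring. With the scanner's log ratios Fth1 had 0.50 and -0.27, a mean of 0.12, so the gap between the dyes was smaller with that scaling and the mean similar. Ftl1, the light chain, had -0.026 and 0.056, a mean of 0.015. Both ferritin genes have processed copies in the genome, and a probe may read these too.

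The other genes of the pathway also had medians near 0 with this scaling. Among 14 other regulators of Nrf2, 12 were measured, and none was at least 1.5-fold higher or lower on both arrays. Only 0.0300% of all genes passed in each direction, so finding none in a list this short says little. The median of the regulators was -0.00064. Gsk3b, a kinase that primes Nrf2 for degradation, had 0.23 and 0.023, and Maff, one of the small Maf partners, had -0.22 and -0.015. The mean for Maff was -0.11 here and -0.36 with the scanner's log ratio. Among 16 other Nrf2 target genes 14 were measured and none passed, with a median of -0.0064. Aox1, an aldehyde oxidase, had 0.090 and 0.31, a mean of 0.20, and Abcc4, an exporter of conjugates, 0.22 and -0.0081. With this scaling Aox1 was the pathway gene outside the 39 with the largest mean in size, still short of 1.2-fold. Among 24 other antioxidant and redox genes 23 were measured and none passed, with a median of -0.033. Selenow, a small selenoprotein, followed the dye as Fth1 did, with 1.08 and -0.83, and Gsk3b and Selenow both had means of 0.13. Gpx2, a further glutathione peroxidase, had -0.18 and 0.39. With median centring the medians of the regulators, targets and redox genes were -0.15, -0.16 and -0.22, beside -0.16 for all genes. Some means were then past 1.2-fold, such as those of Glrx2 (-0.30) and Nfe2l1 (-0.27).

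Members with and without the response element letters in the searched window had like medians. Only 250 bases before to 50 bases after a start were searched, so a member without a match can hold the letters elsewhere. Nqo1 counts as without a match, and Hmox1, Gclc, Gsr, Msra, Prdx6 and Sod3 had no window and are left out. The split thus cannot tell whether genes with a response element differ from others. The 9 measured members with a match had a median log2 ratio of -0.032, and 7 of them had means below 0. The 24 measured members with a window and no match had a median of -0.040. Over all measured genes with a window, those with the letters had a median of -0.017 and those without -0.019.

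Markers of cell types that express these genes were set beside them. The 8 astrocyte markers had a median log2 ratio of -0.041, with means from -0.12 to 0.22. Of the 8, 7 had opposite signs on the arrays, as did 59.3% of all measured genes. The 7 oligodendrocyte markers also had -0.041, with means from -0.12 to -0.0038, and the 8 measured microglial markers -0.034, with means from -0.17 to 0.033. The 6 endothelial markers had -0.035, with means from -0.20 to 0.11. Medians above 0 were found for neurons and meningeal fibroblasts. The 9 measured neuron markers had a median of 0.053 (-0.17 with median centring) and means from -0.086 to 0.28, and 3 of them were above 0 on both arrays and 0 below. The 10 meningeal fibroblast markers had a median of 0.20 (0.064 with median centring) and means from 0.0031 to 0.28. Of these 10 markers 7 were above 0 on both arrays. With this scaling 14.3% of all measured genes were above 0 on both arrays and 26.3% below. With median centring 8.89% of all genes were above and 61.4% below, and the markers were not counted under that scaling. The 8 measured choroid plexus markers had a median of -0.068, with means from -0.31 to 0.20. In tissue RNA of this kind, fewer cells of a type and less RNA per cell cannot be told apart, and the part of these cell types in the members' ratios was not tested.

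The small distance of the members from all genes held across processing. The median of the members minus that of all measured genes was -0.020 as reported and lay between -0.060 and -0.016 under the settings with both arrays. It was -0.059 on array 1 alone and 0.038 on array 2 alone, so the arrays differed in its sign. Under every setting with both arrays 17 of the 39 members were below the median of all genes, among them Nfe2l2, Keap1, Gclm, Gpx1, Gpx4 and G6pdx. Above it were 4, namely Prdx1, Prdx3, Cat and Fth1, and the other 18 changed side. These settings process the same 2 arrays in different ways, and the share of all genes that kept their side was not counted. With the reported scaling the 4 members above had opposite signs on the 2 arrays, as 59.3% of all genes did. Among the 17 below, Hmox1, Blvra, Blvrb, Slc7a11, Gclm, Gss, Gsr, Txnrd2, Prdx5 and Prdx6 also had opposite signs.

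**Figure D4:**
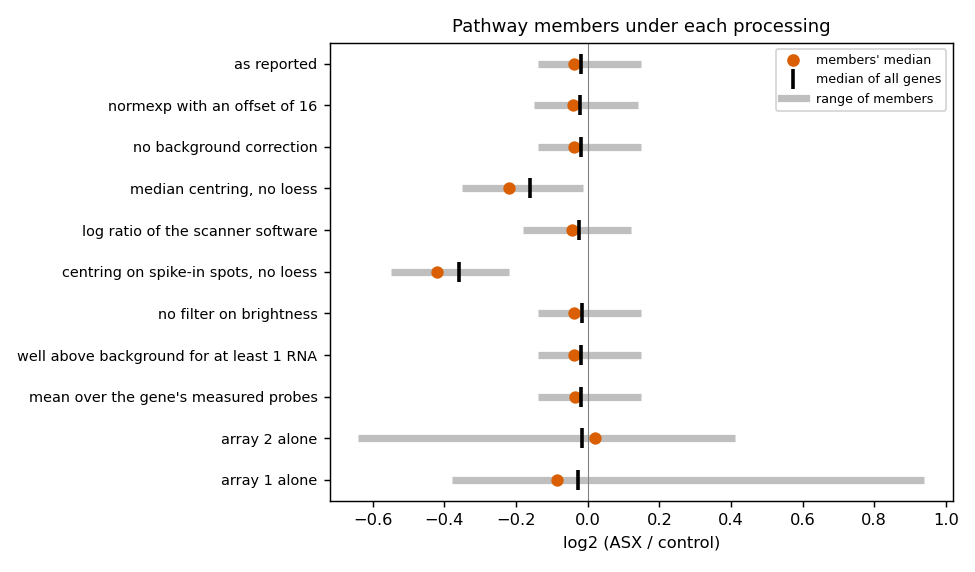
For each processing setting, the median log2 ratio of the 39 members (orange), the median of all measured genes (black tick) and the range of the members' values (grey bar). Median centring and centring on spike-in spots shift both medians further below 0 together, while on the single arrays the members' median lies at -0.085 (array 1) and 0.021 (array 2).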

How the data were processed

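Agilent Feature Extraction 11.0.1.1 read the scans, per the submitters' processing notes and the file headers. The deposited intensity was the median over the pixels of a spot in each channel, with a local background and no normalization. The deposited log10 ratio (Cy5 over Cy3) and its p-value came from scanner signals that were background-subtracted and dye-normalized, per the file headers; the value table of the series repeats these ratios, unturned for the dye swap, with medians of 0.0050 and 0.0083 and a largest difference of 5e-08 from the processed signals, which settles its scale and direction.

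In limma 3.58.1 (R 4.3.3), normexp (offset 50) removed background and loess scaled each array, giving control spots a weight of 0. Left out were 1639 control spots of 45018 features and 3 non-uniform spots; no transcript spot was saturated. Log2 ratios were turned to ASX over control and averaged over the spots of a probe. Of 41174 probes, 23374 matched 1 RefSeq symbol (GRCm38.p6) by unversioned accession, 17800 none and 0 several. A gene took its brightest probe among the 30074 that stood well above background in each RNA and on each array. The number of arrays limits the precision, and with 1 replicate there was no test. The steps were tested on simulated data, with changes of 1.5-fold or more planted in probes that were not dim. Dim probes and changes as small as those of the members were outside that test. The members, lists and rules were chosen with earlier results of these data known. Every measured member was named with its mean ratio or mean fold, with values on both arrays for Nfe2l2, Keap1, the target genes Hmox1, Nqo1, Gclc, Gclm, Txnrd1, Srxn1 and Slc7a11, and the largest mean in size of each role; other pairs of values were added after they were seen. Of the other pathway lists, the 2 largest means in size are named per list. Alternatives were 2 other background settings, 3 other scalings, 2 other filters, the mean over probes, and each array alone.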

Additional observations from a re-analysis of the deposited data

How the results depend on the processing

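In the same diet direction, no member was 1.5-fold apart on both arrays under any of the 8 alternatives that kept both arrays; with either array left out the count was 1, which was Fth1, higher on array 1 and lower on array 2. The 0 members over 1.2-fold apart in the mean became 10 with median centring and 38 with centring on the spike-in spots, and 5 to 8 on single arrays. The median over the members of -0.039 became -0.22 with median centring and -0.42 with centring on the spike-in spots, beside medians of all genes of -0.16 and -0.36, and ranged from -0.085 to 0.021 over the single arrays. The 8 members below 0 on both arrays became 34 with median centring and 35 with spike-in centring, and the 1 above 0 became 0 under each; on single arrays 19 to 27 were below 0 and 12 to 20 above. The other alternatives (an offset of 16, no background correction, the scanner's log ratio, the filters and the mean over probes) kept these counts within 1.5-fold and moved the median by less than the SD between arrays. Of 390 single member values under the alternatives, 61 moved by more than that member's SD between arrays. The 390 include the values on each array alone, which by construction lie within that SD of the mean. All 61 thus came from the 8 alternatives that kept both arrays, and their share of 390 understates how often processing moved a member. The cause of these shifts was not tested. No paired analysis was possible because there is 1 replicate and no test. Ratios of dim probes such as those of Nqo1 and Sod3 are compressed by the offset, which limits what they can show.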

Other observations

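Each log ratio came with a deposited p-value of the scanner software, which describes technical error of a spot and not the diet. At 0.05 or below stood Fth1 on array 1 and Cat and Sod3 on array 2, that is 1 and 2 of the 39 members, while 3.92% and 2.67% of all measured genes stood there on the respective arrays. No member did so on both arrays, and 0.270% of all genes did with 1 diet direction. Each of the 3 had opposite signs on the arrays.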
